A study of Homo sapiens with 100 samples.

Results

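The genes described here encode the subunits, activators, inhibitor and assembly chaperones of the proteasome. They were measured by bulk sequencing of messenger RNA 3′ ends in TMD8 cells, an established human line of activated B cell type lymphoma. Members were all rows of the count table whose symbol was PSM, one letter from A to G and a number, which gave 48 of 78894 gene identifiers. By role they comprised 8 alpha subunits of the 20S core, 7 constitutive and 3 immunoproteasome beta subunits and the thymic beta subunit PSMB11. For the 19S cap there were 6 ATPases and 14 non-ATPase genes, the latter a mix of cap subunits and 19S chaperones. The rest were 4 activators, 1 inhibitor and the 4 PSMG assembly chaperones. In every fit 47 of the 48 members passed the filter on low counts. PSMB11 had a count of 0 in all 100 libraries, which allows up to 3 counts per library. PSMA8, an alpha subunit known from the testis, passed with 2.64 ± 0.689 CPM (counts per mega-read) in wild-type DMSO libraries (SD, n = 5).

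The study used 6 clones carrying A428D and 5 wild-type clones, each grown from a single cell. For 24 h each clone received zelebrudomide (labelled Zele), bexobrutideg (Bexo), pomalidomide (Pom) or venetoclax (Ven) alone, one of the first 3 together with venetoclax, or DMSO, which made 16 groups with 1 library per clone. A further 12 libraries held the same clones and the parental line untreated, with no vehicle. Sample titles place A428D in SF3B1 in 54 libraries, but the growth protocol and the design text put the change in BTK, and a point change cannot be checked from 3′ end counts. Bexobrutideg degrades BTK, zelebrudomide degrades BTK and the transcription factors IKZF1 and IKZF3, and pomalidomide degrades IKZF1 and IKZF3. Venetoclax blocks BCL2, a protein that protects cells from apoptosis. Doses are not given, so drug effects are set side by side only as given.

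The proteasome degrades ubiquitin-tagged proteins. Its 20S core is a barrel of alpha and beta rings, in which PSMB5, PSMB6 and PSMB7 hold the proteolytic sites. Interferon and lymphoid programmes replace these by PSMB8, PSMB9 and PSMB10, which gives the immunoproteasome and peptides suited to HLA class I molecules. The 19S cap recognises and unfolds substrates, PSME1 and PSME2 form the 11S activator induced by interferon, PSME3 forms a nuclear 11S activator, and PSMG1 to PSMG4 assemble the core. When proteasome capacity falls, the transcription factor NFE2L1 raises many subunit genes together.

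Libraries held 1.48 to 12.5 M counted reads (M, mega; median 7.14 M). The summed level of 6 B cell markers was 1560 to 3379 CPM, while summed T cell and monocyte markers were at most 3.64 and 2.33 CPM. One library, the bexobrutideg plus venetoclax sample of wild-type clone 3, stood apart, with the lowest read number (1.48 M) and the lowest share of mitochondrial messenger RNA (3.75%). Its member levels deviated from the other clones of its group with a log2 SD of 0.858, against 0.234 in the next library. It enters the shared estimate of spread of all 24 h comparisons, which are therefore given with and without it where the call differs. A member is called here when its Benjamini-Hochberg adjusted p over all genes tested was under 0.05 in edgeR's quasi-likelihood test. Each p measures only the spread between these clone cultures. The test used the groups alone and left out the pairing of treatments by clone. A fit with the clone as a block is given as an alternative. Fold changes are on the log2 scale.

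Proteasome genes were higher after venetoclax in both genotypes. In A428D clones 17 of 47 members were higher and 0 lower against DMSO, and in wild-type clones 31 were higher and 0 lower. Over all 14962 genes tested, 8.05% were called higher and 8.79% lower in A428D clones, and 15.4% higher and 17.4% lower in wild-type clones. The median change over the members was 0.17 in A428D clones, against -0.04 over all genes, and 0.28 in wild-type clones, against -0.06. In both genotypes 45 of 47 members had a positive change. Venetoclax and DMSO groups did not overlap for 17.0% of members in A428D clones, against 7.01% of all genes. In wild-type clones the shares were 70.2% and 28.3%.

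The assembly chaperone PSMG1 had the largest change in both genotypes. PSMG1 was at 35.5, 49.4 and 59.6 CPM (lowest, median, highest) in venetoclax-treated A428D clones, against 21.1, 28.0 and 36.8 CPM in their DMSO libraries. In wild-type clones 1 to 5 it was at 37.0, 55.7, 56.8, 49.8 and 56.7 CPM with venetoclax and at 23.2, 29.2, 28.5, 23.3 and 24.8 CPM with DMSO. The groups overlapped in A428D clones, although all 6 clones were higher, and did not overlap in wild-type clones. The change was 0.71 (SE 0.16, adjusted p = 0.00063) in A428D clones and 0.96 (SE 0.17, adjusted p = 6.8e-06) in wild-type clones. Of the other PSMG chaperones, PSMG3 and PSMG4 also rose in both genotypes, and PSMG2, the partner of PSMG1, was not called in either (0.08 in A428D clones and 0.06 in wild-type clones).

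All activators except PSME1 rose in both genotypes. PSME2, the beta subunit of the 11S ring, was at 74.8, 84.9 and 101 CPM (lowest, median, highest) in A428D clones with venetoclax and at 44.2, 63.6 and 73.4 CPM with DMSO. In wild-type clones 1 to 5 it was at 79.8, 105, 101, 88.9 and 107 CPM with venetoclax and at 50.5, 55.6, 57.7, 47.0 and 55.2 CPM with DMSO. Neither pair of groups overlapped. PSME2 rose by 0.47 (SE 0.12, adjusted p = 0.0027) in A428D clones and by 0.82 (SE 0.13, adjusted p = 5.0e-07) in wild-type clones. PSME1, which pairs with PSME2 in the ring, changed by 0.01 and 0.16 without a call (adjusted p = 0.968 and 0.184). PSME3 rose to 77.3 ± 5.57 CPM in A428D clones, against 54.6 ± 8.98 CPM with DMSO (SD, n = 6 each), and to 81.2 ± 8.98 CPM in wild-type clones, against 45.5 ± 4.47 CPM (n = 5 each), changes of 0.48 and 0.80. PSME4, the PA200 activator, rose by 0.35 in A428D clones and 0.39 in wild-type clones. The inhibitor PSMF1 was not called in either genotype.

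In the 20S core, 3 of 8 alpha subunits rose in A428D clones and 7 of 8 in wild-type clones, where only PSMA8 was not called. PSMA7 was the alpha subunit with the largest called change, at 289 ± 24.4 CPM with venetoclax against 224 ± 22.9 CPM with DMSO in A428D clones (n = 6 each, log2 change 0.35). In wild-type clones 1 to 5 it was at 280, 323, 317, 293 and 323 CPM with venetoclax, against 191, 205, 196, 194 and 182 CPM with DMSO (log2 change 0.63, adjusted p = 9.6e-10). None of the 7 constitutive beta subunits was called in A428D clones, and 4 were called in wild-type clones, with PSMB7 at 0.32 and PSMB6 at 0.26. PSMB5, which carries the chymotrypsin-like site, was higher in every wild-type venetoclax library than in any DMSO library, but its change of 0.20 was not called (adjusted p = 0.069). With the clone as a block it was called (adjusted p = 0.016).

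In the 19S cap, 2 of 6 ATPases rose in A428D clones and 3 of 6 in wild-type clones. PSMC3 rose by 0.31 in A428D clones and 0.65 in wild-type clones, and PSMC5 by 0.27 and 0.36. Of the 14 genes for non-ATPase subunits and 19S chaperones, 5 rose in A428D clones and 10 in wild-type clones. PSMD1, the large scaffold of the base, was at 66.4 ± 5.91 CPM with venetoclax and 44.0 ± 6.52 CPM with DMSO in A428D clones (n = 6 each, log2 change 0.57, adjusted p = 1.9e-06). In wild-type clones it was at 64.2 ± 5.81 CPM with venetoclax and 40.1 ± 3.67 CPM with DMSO (n = 5 each, log2 change 0.65, adjusted p = 7.4e-08). Neither pair of groups overlapped. PSMD14, the deubiquitinase of the lid, rose by 0.27 in A428D clones and 0.49 in wild-type clones.

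**Figure D1:**
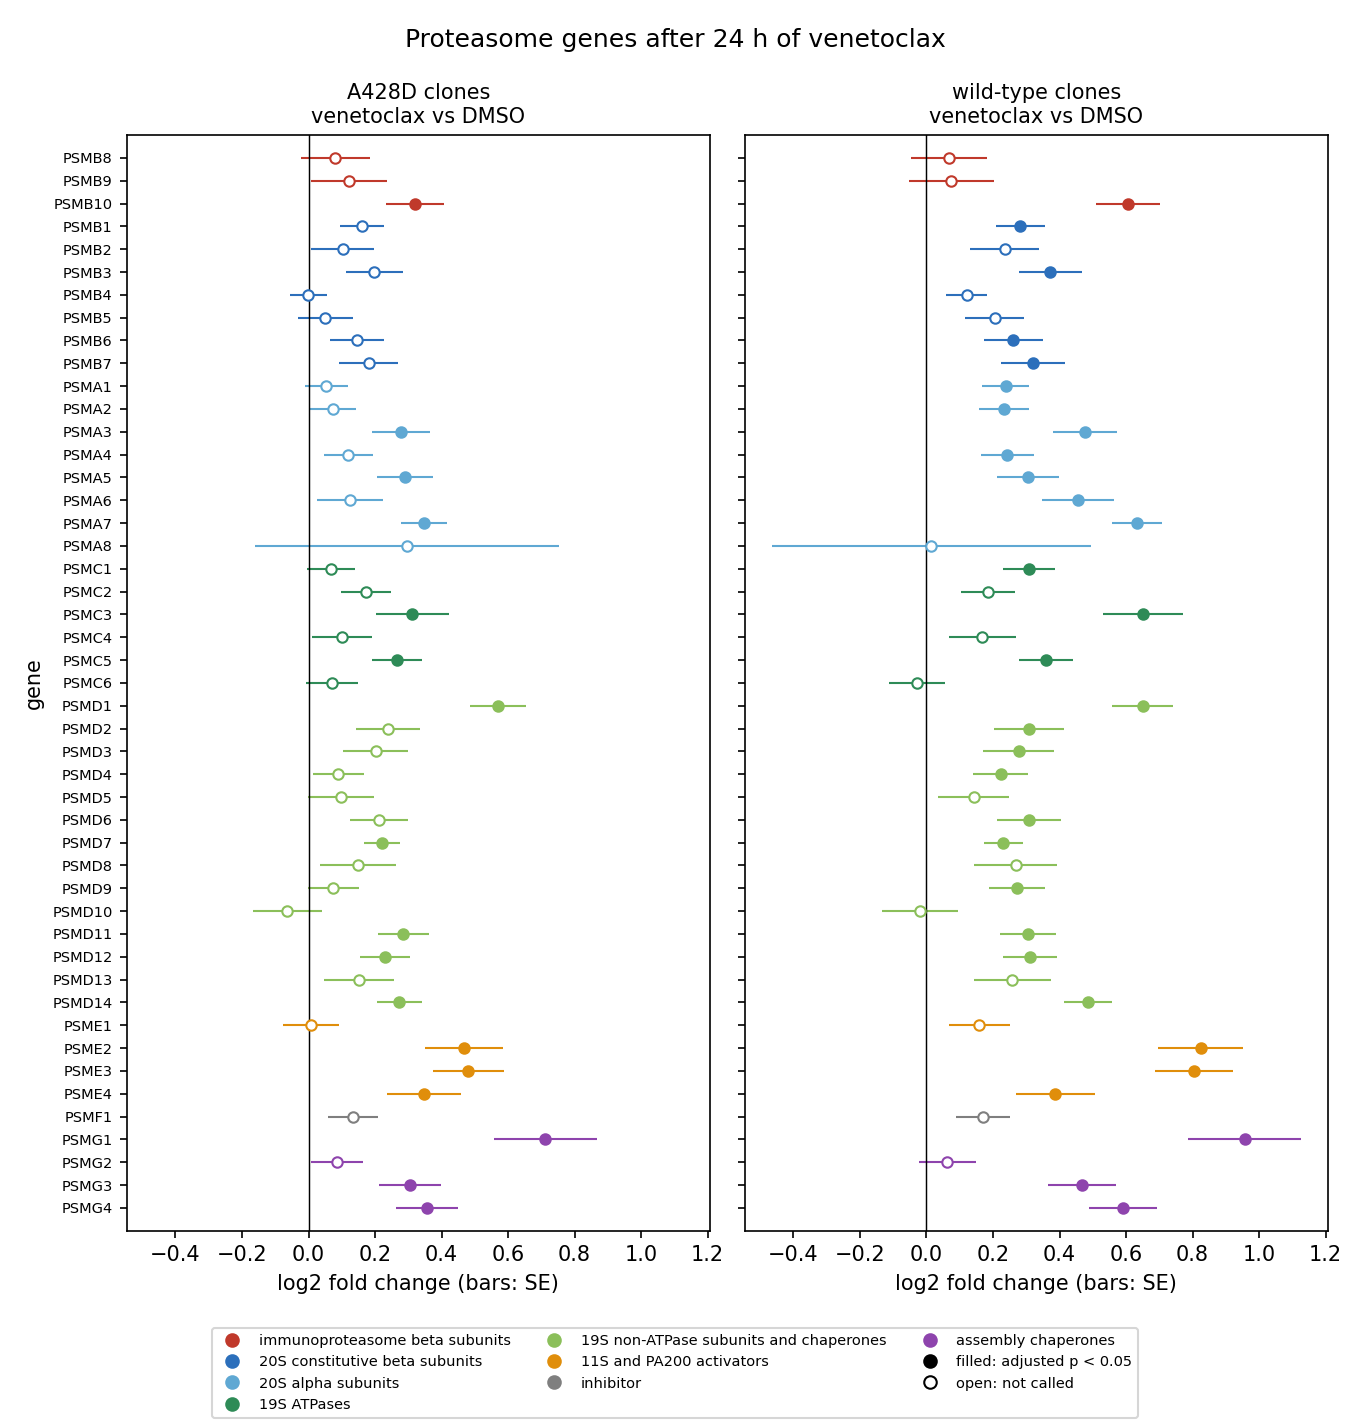
Log2 fold change of each of 47 members after 24 h of venetoclax against DMSO in A428D clones (left, n = 6 each) and wild-type clones (right, n = 5 each). Points are edgeR estimates and bars are their SE. Filled points have an adjusted p under 0.05, 17 in A428D clones and 31 in wild-type clones, and colours mark the members' roles. Nearly all points lie right of 0.

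The 3 immunoproteasome genes did not move together under venetoclax. PSMB10, the counterpart of PSMB7, was at 57.8, 60.7 and 65.7 CPM (lowest, median, highest) in A428D clones with venetoclax and at 42.0, 48.2 and 53.4 CPM with DMSO. In wild-type clones 1 to 5 it was at 65.5, 71.2, 71.0, 65.1 and 65.0 CPM with venetoclax and at 41.6, 46.1, 42.7, 40.3 and 46.3 CPM with DMSO. Neither pair of groups overlapped. PSMB10 rose by 0.32 (SE 0.09, adjusted p = 0.0063) in A428D clones and by 0.61 (SE 0.10, adjusted p = 6.6e-07) in wild-type clones. PSMB8 changed by 0.08 (95% interval -0.12 to 0.29, adjusted p = 0.65) in A428D clones and by 0.07 (-0.16 to 0.29, adjusted p = 0.69) in wild-type clones. PSMB9 changed by 0.12 (-0.10 to 0.35) in A428D clones and 0.08 (-0.17 to 0.33) in wild-type clones, also without a call. The log2 ratio of PSMB10 to PSMB7 counts was higher with venetoclax than with DMSO by 0.14 in A428D clones, where 6 of 6 clones were higher and groups overlapped, and by 0.29 in wild-type clones, where 5 of 5 were higher and groups did not overlap.

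The venetoclax change itself was compared between genotypes with an interaction term. In this test 0 of 47 members were called by edgeR, 8 had an unadjusted p under 0.05, and DESeq2 also called 0; over all genes 0% were called. The median difference, A428D minus wild type, was -0.12, with 5 of 47 positive. For PSMB10 it was -0.29 (SE 0.13, adjusted p = 0.9997) and for PSME2 -0.36 (SE 0.17, adjusted p = 0.9997).

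Other genes of the pathway moved less uniformly after venetoclax. Of 21 further proteasome and ubiquitin factors, 4 rose and 3 fell in A428D clones, and 7 rose and 2 fell in wild-type clones. UCHL5, a deubiquitinase of the 19S cap, rose by 0.63 in A428D clones and 0.83 in wild-type clones. AKIRIN2, which brings proteasomes into the nucleus, fell by 0.43 on the log2 scale in A428D clones and by 0.57 in wild-type clones. Of 7 transcriptional regulators of proteasome genes, 1 fell in A428D clones, while 1 rose and 2 fell in wild-type clones. NFE2L1 fell by 0.55 in wild-type clones, and its partner MAFG by 0.44 in A428D clones and 0.71 in wild-type clones. Of 15 class I presentation genes, 4 fell in A428D clones (HLA-E, HLA-C, CANX and B2M), and 1 rose (TAP2) and 6 fell in wild-type clones. Of 9 interferon and class I regulators, 3 fell in A428D clones and 5 in wild-type clones. STAT2 fell by 0.51 in A428D clones and 0.85 in wild-type clones, and IRF1 by 0.71 and 0.57. The members' share of all counts was 0.452 ± 0.0160% with venetoclax and 0.374 ± 0.0241% with DMSO in A428D clones, and 0.474 ± 0.0304% against 0.366 ± 0.0144% in wild-type clones. The summed B cell markers moved as well, to 2605 ± 136 CPM with venetoclax against 3097 ± 212 CPM with DMSO in A428D clones and 2373 ± 164 CPM against 3069 ± 116 CPM in wild-type clones. Summed fibroblast markers were 7.63 ± 3.82 CPM against 14.1 ± 4.52 CPM in A428D clones and 5.95 ± 1.15 CPM against 10.8 ± 1.59 CPM in wild-type clones, and of the 2 that passed the filter COL1A1 was lower in both. The part of these markers in the members' changes was not tested. In such bulk samples fewer cells of a state and less RNA per cell cannot be told apart. Without the shallowest library the counts were 25 in A428D clones and 38 in wild-type clones, with all of the 17 and 31 genes among them, against 21.4% and 36.6% of all genes. With no filter on low counts, which brings 54783 genes into the adjustment, 11 and 18 members were called. The share of all genes called in that setting is not reported here.

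Promoter windows of the 3 immunoproteasome genes and of PSME2 and PSMG1 are shown because these genes parted under the treatments. Each is the 250 bases before the first listed start of the gene in RefSeq on GRCh38.p14, read 5′ to 3′ on the gene's strand. Capitals mark matches to TGACNNNGC, the core of the antioxidant element bound by NFE2L1 and its relatives with MAF partners, on either strand.
PSMB8, chr6:32844680-32844929, minus strand: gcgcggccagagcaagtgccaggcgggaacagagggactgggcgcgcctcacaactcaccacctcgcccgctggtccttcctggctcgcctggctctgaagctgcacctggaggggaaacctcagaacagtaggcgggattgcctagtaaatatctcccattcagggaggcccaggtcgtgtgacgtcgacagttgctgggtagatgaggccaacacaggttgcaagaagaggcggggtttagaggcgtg
PSMB9, chr6:32853942-32854191, plus strand: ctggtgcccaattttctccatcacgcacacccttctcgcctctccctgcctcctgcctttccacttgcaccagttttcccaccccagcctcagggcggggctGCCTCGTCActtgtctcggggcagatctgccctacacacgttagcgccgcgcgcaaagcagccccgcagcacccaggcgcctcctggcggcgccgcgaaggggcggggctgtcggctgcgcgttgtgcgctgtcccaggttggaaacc
PSMB10, chr16:67936851-67937100, minus strand: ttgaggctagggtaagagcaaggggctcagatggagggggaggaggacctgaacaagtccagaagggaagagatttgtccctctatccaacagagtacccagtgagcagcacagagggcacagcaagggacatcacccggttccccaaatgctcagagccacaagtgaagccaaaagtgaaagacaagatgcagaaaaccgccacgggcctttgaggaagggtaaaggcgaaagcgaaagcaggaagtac
PSME2, chr14:24146611-24146860, minus strand: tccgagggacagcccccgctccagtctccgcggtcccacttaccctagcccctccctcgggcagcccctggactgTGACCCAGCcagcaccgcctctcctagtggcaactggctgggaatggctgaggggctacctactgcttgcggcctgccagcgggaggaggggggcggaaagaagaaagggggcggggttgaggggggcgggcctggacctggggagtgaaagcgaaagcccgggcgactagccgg
PSMG1, chr21:39183452-39183701, minus strand: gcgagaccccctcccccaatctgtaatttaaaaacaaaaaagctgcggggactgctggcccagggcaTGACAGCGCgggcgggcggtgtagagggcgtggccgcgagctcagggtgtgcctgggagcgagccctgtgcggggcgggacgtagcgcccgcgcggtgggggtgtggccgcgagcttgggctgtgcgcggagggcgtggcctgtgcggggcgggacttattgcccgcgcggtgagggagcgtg

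The antioxidant core stood 148 bases before the start in the PSMB9 window, 175 bases before it in PSME2 and 183 bases before it in PSMG1. The PSMB8 and PSMB10 windows held no such match. RefSeq gave windows for 42 members, 51 in all. Of these 51 windows 13 (25.5%) held the core, against 10.9% of 35116 promoters. Also searched on both strands was TTCNNNGAA, the interferon-gamma activated site, found in 7 of 51 windows (13.7%, against 6.57% of all promoters). Among these was another PSMB8 window, chr6:32844048-32844297, which is not shown. CCAAT was in 19 (37.3%, against 32%) and CCGGAAG (ETS type) in 11 (21.6%, against 8.52%). CACGTG (E box) was in 3 (5.88%, against 6.34%) and TGATGNAA (the amino acid response type) in 0 (against 3.14%). No motif of interferon regulatory factors was searched. A match describes letters in the window and is not a measured binding site.

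PSMB8 had group means of 84.3 ± 7.40 (Zele), 84.2 ± 6.13 (Bexo), 90.9 ± 4.75 (Pom), 88.6 ± 5.89 (Ven), 87.3 ± 5.30 (Zele plus Ven), 87.6 ± 8.73 (Bexo plus Ven), 100.1 ± 7.49 (Pom plus Ven) and 82.5 ± 5.33 CPM (DMSO) in A428D clones (SD, n = 6 each). In wild-type clones they were 82.1 ± 3.05 (Zele), 81.6 ± 6.43 (Bexo), 79.0 ± 7.81 (Pom), 74.0 ± 4.84 (Ven), 91.5 ± 7.31 (Zele plus Ven), 80.2 ± 32.4 (Bexo plus Ven), 81.6 ± 5.01 (Pom plus Ven) and 69.1 ± 5.26 CPM (DMSO; n = 5 each). Over the 24 h groups the lowest PSMB8 mean was thus that of wild-type DMSO libraries and the highest that of A428D libraries with pomalidomide plus venetoclax. PSMB9 means spanned 37.3 ± 5.82 CPM (Zele) to 50.0 ± 2.79 CPM (Pom plus Ven) in A428D clones and 28.7 ± 3.74 CPM (DMSO) to 38.5 ± 2.13 CPM (Zele plus Ven) in wild-type clones. PSMB10 means spanned 45.7 ± 3.96 CPM (Zele) to 61.0 ± 3.19 CPM (Ven) in A428D clones and 43.4 ± 2.697 CPM (DMSO) to 67.6 ± 3.27 CPM (Ven) in wild-type clones. Among these genes, then, only PSMB10 had its highest mean under venetoclax alone in both genotypes, whereas PSMB8 means that were neighbours in order differed by less than the larger SD of the pair, except for the topmost pair. The constitutive partners had 24 h means of 87.1 to 117 CPM for PSMB5, 66.2 to 99.0 CPM for PSMB6 and 74.3 to 96.3 CPM for PSMB7. PSME1 means ran between 117 and 159 CPM and PSME2 means between 53.2 and 116 CPM.

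**Figure D2:**
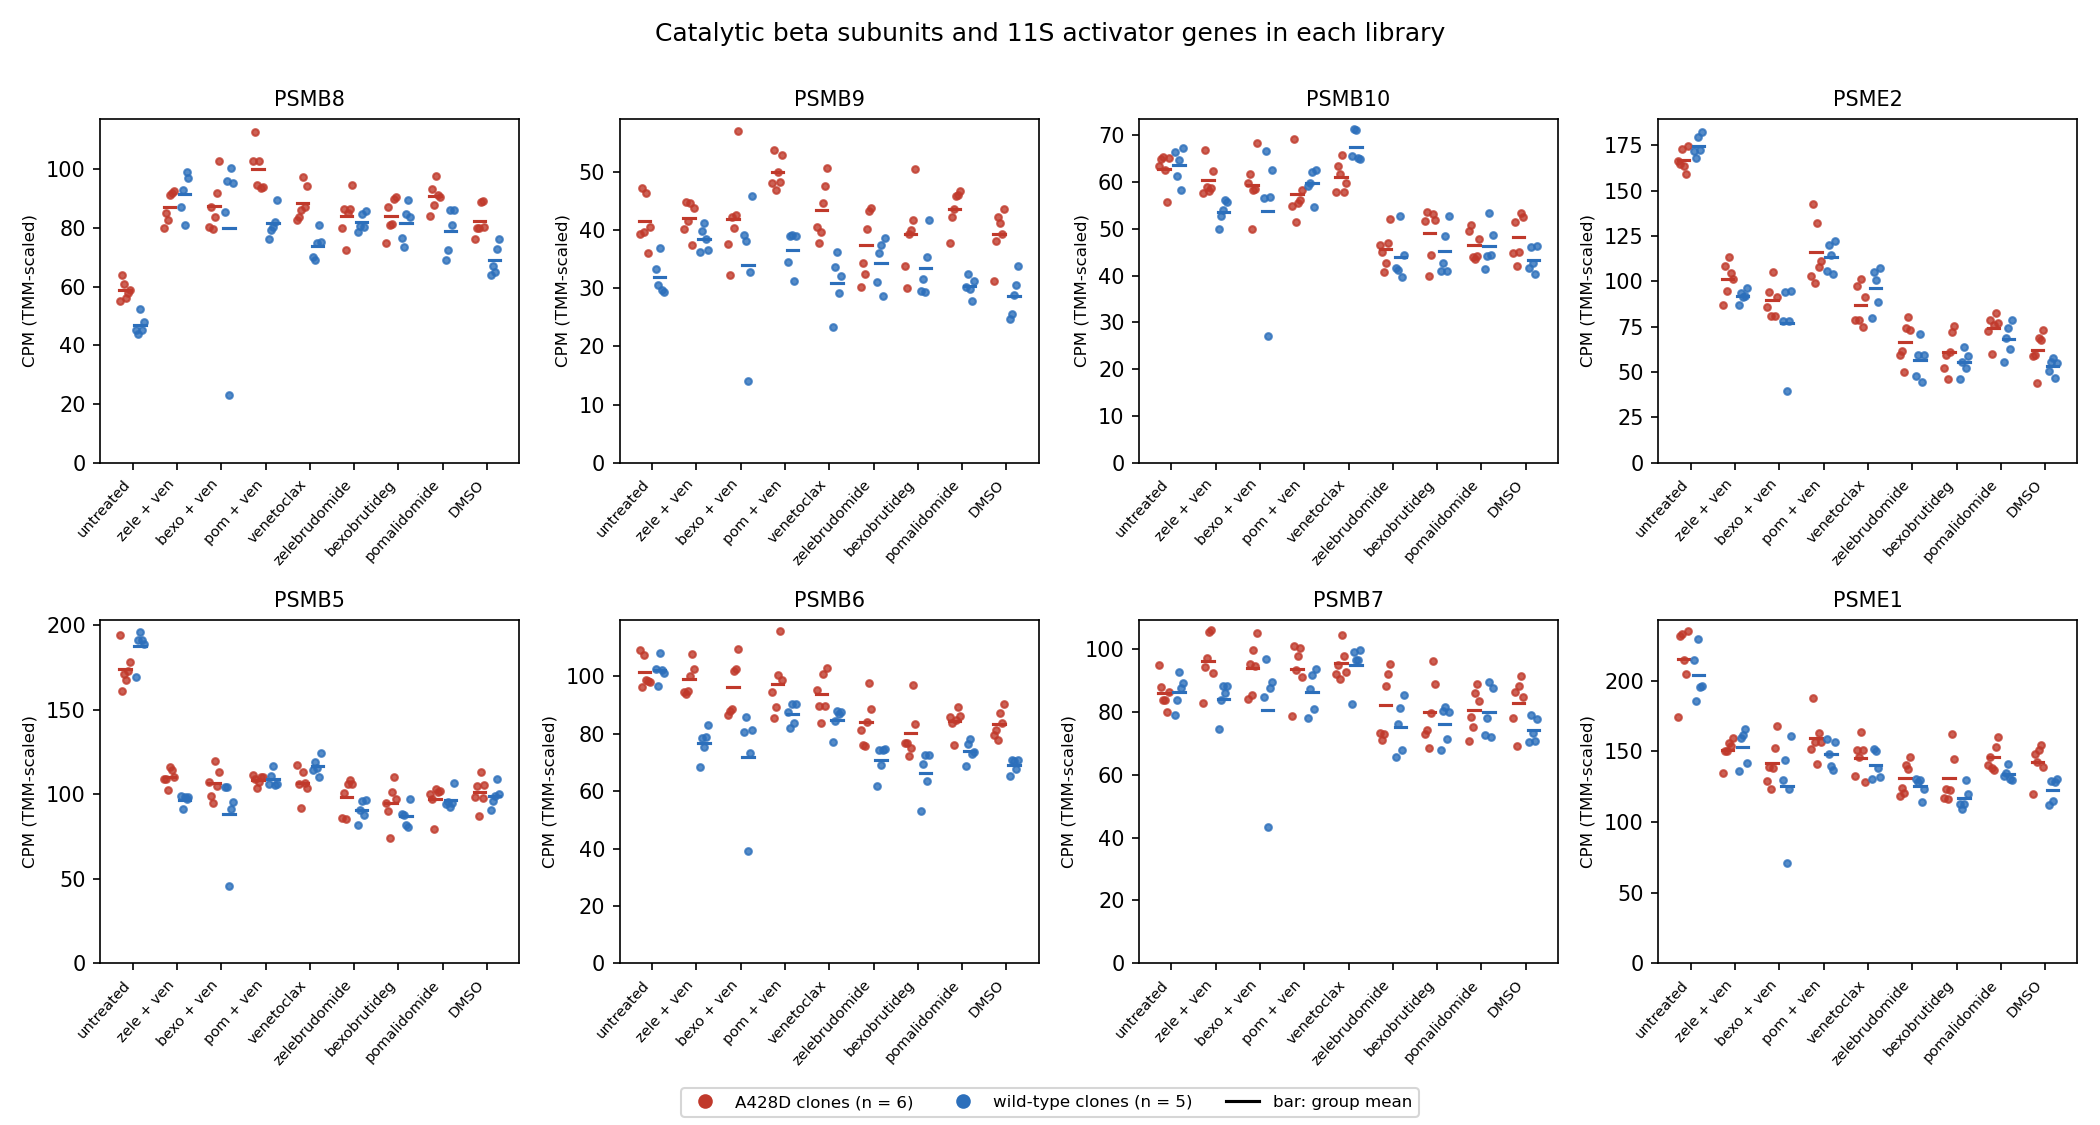
CPM of PSMB8, PSMB9, PSMB10, PSMB5, PSMB6, PSMB7, PSME1 and PSME2 in each library by treatment, A428D clones left of wild-type clones in each pair (n = 6 and 5). Points are libraries, bars are group means, and the axes start at 0. The lone low wild-type point under bexobrutideg plus venetoclax is clone 3 (PSMB8 at 23.1 CPM), and the untreated groups have the lowest PSMB8 means and the highest PSME2 means.

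The single degraders left nearly all members without a call. In A428D clones edgeR called 0 members under zelebrudomide (1 at an unadjusted p under 0.05), 0 under bexobrutideg (0) and 0 under pomalidomide (1), and DESeq2 called 0, 0 and 0; over all genes 2.06%, 0% and 8.68% were called. In wild-type clones 1 member was called under zelebrudomide, 0 under bexobrutideg (4 at an unadjusted p under 0.05, and 0 by DESeq2) and 2 under pomalidomide, against 6.57%, 2.45% and 9.99% of all genes. The member lower under zelebrudomide was PSMD11, a lid subunit linked to raised proteasome assembly. PSMD11 was at 74.8, 92.9, 96.0, 94.4 and 91.2 CPM with zelebrudomide in wild-type clones 1 to 5, and at 92.7, 117, 113, 121 and 111 CPM with DMSO. It was lower in all 5 clones, with overlapping groups, by a log2 change of -0.29 (SE 0.08, adjusted p = 0.020). Under bexobrutideg PSMD11 changed by -0.26 (adjusted p = 0.086, and 0.0019 with the clone as a block). Under pomalidomide it stood at 111 ± 4.32 CPM, against 111 ± 10.8 CPM with DMSO, and PSMD14 and PSMD9 were higher by 0.22 and 0.25 (adjusted p = 0.038 and 0.046). With the clone as a block the calls in wild-type clones numbered 3, 2 and 8 under zelebrudomide, bexobrutideg and pomalidomide, against 16.2%, 10.6% and 19.2% of all genes. Without the shallowest library they numbered 2, 1 and 8, against 8.52%, 3.40% and 12.1%. The zelebrudomide call was lost without any one of wild-type clones 1, 2, 4 and 5, and both pomalidomide calls without A428D clone 2 or any one of wild-type clones 1, 3, 4 and 5. PSMD14 kept its call in 10 of 16 alternatives and PSMD9 in 6. In A428D clones the block gave 1 call under pomalidomide (16.7% of all genes).

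Under either BTK degrader PSMB8 lay above its DMSO level in all 5 wild-type clones, a difference at the edge of the test. It was at 78.6, 80.7, 84.9, 80.4 and 85.7 CPM with zelebrudomide in clones 1 to 5, against 64.1, 67.2, 65.0, 72.8 and 76.3 CPM with DMSO. All 5 zelebrudomide values lay above all 5 DMSO values, while 10.5% of all genes had groups without overlap in this comparison. The change was 0.26 (SE 0.12), which was not called with all libraries (adjusted p = 0.19) and was called without the shallowest library, itself in neither group (0.27, adjusted p = 0.0046), and with the clone as a block (adjusted p = 0.044). With bexobrutideg PSMB8 was at 76.7, 73.6, 84.8, 89.5 and 83.6 CPM, higher in 5 of 5 clones with overlapping groups. Its change was 0.25 (SE 0.12, adjusted p = 0.30), called without the shallowest library (0.27, adjusted p = 0.0097) and not with the clone as a block (adjusted p = 0.066). PSMB9 changed by 0.27 and 0.23 under the same drugs without a call (adjusted p = 0.24 and 0.43), and PSMB10 by 0.03 and 0.07. In A428D clones PSMB8 changed by 0.03 under zelebrudomide and 0.04 under bexobrutideg, and the difference between genotypes was not called for any member under zelebrudomide (0 by edgeR, 2 at an unadjusted p under 0.05), bexobrutideg (0, and 3) or pomalidomide (0, and 0), nor by DESeq2. Over all genes that difference was called for 1.04%, 0.615% and 0%. With the clone as a block it was called for PSMD11 (higher) and PSMD9 (lower) under zelebrudomide and for PSMD11 under bexobrutideg, against 6.76% and 5.03% of all genes.

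Zelebrudomide and bexobrutideg differed in no member in A428D or in wild-type clones (0 called of 47, and 0 by DESeq2), against 1.24% and 1.23% of all genes. In wild-type clones 0 members had an unadjusted p under 0.05, and the PSMB8 difference was 0.01 (95% interval -0.22 to 0.23). Zelebrudomide and pomalidomide differed in 0 members in A428D clones (0.842% of all genes) and in 1 in wild-type clones (7.43% of all genes). That member was PSMD11, lower with zelebrudomide in 5 of 5 clones with no overlap of groups by -0.30 (95% interval -0.46 to -0.13, adjusted p = 0.017). Groups did not overlap for 11.2% of all genes. For PSMB8 the difference was 0.07 (-0.16 to 0.29). With the clone as a block 7 members were lower with zelebrudomide than with pomalidomide (18.4% of all genes called), and without the block 0 were called without wild-type clone 1, 2, 4 or 5.

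In wild-type clones zelebrudomide plus venetoclax differed from venetoclax alone in few members, and PSMB8 was the 1 called higher. Of 47 members 1 was higher and 5 were lower than with venetoclax alone, against 11.6% and 9.61% of all genes. The members called lower were thus near the share of all genes, and those called higher below it. Groups did not overlap for 17.0% of members and 18.5% of all genes. The member higher was PSMB8, at 87.2, 93.0, 81.2, 99.0 and 97.0 CPM with the combination in clones 1 to 5 and at 70.1, 69.0, 74.9, 81.1 and 75.2 CPM with venetoclax. It was higher in 5 of 5 clones and the lowest combination value lay just above the highest venetoclax value. The change was 0.34 (SE 0.12, adjusted p = 0.030, and 0.00018 to 0.34 over 16 alternatives, 6 of which kept the call). PSMB9 was higher in 5 of 5 clones by 0.34 and just missed the threshold (adjusted p = 0.0504, and 0.030 without the shallowest library). PSMB10 fell instead to 53.7 ± 2.49 CPM, against 67.6 ± 3.27 CPM with venetoclax (n = 5 each), with no overlap of groups (-0.30, adjusted p = 0.018). PSMD11 (-0.43), PSME3 (-0.41), PSMB5 (-0.24) and PSMD7 (-0.17) were the other members lower. PSMD11 was at 89.3, 107, 108, 107 and 98.6 CPM with the combination, against 122, 140, 141, 143 and 155 CPM with venetoclax, and the groups did not overlap (adjusted p = 9.5e-05). Without wild-type clone 2 the calls numbered 2 in all, without wild-type clone 1 they numbered 3, without A428D clone 1 they numbered 10, and with the clone as a block 13 (32.5% of all genes). Without the shallowest library 2 members were higher and 10 lower (26.0% of all genes called). Read numbers were 3.15 to 6.12 M with the combination and 6.49 to 7.39 M with venetoclax, and their part in the result was not tested.

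With bexobrutideg plus venetoclax the values of PSMB8 and PSMB10 turned on the shallow library. With all libraries 0 members were higher and 10 lower than with venetoclax alone, against 15.5% of all genes called in either direction. Without wild-type clone 3 of this group, 1 was higher and 7 lower (15.6% of all genes called), and 6 were lower in both: PSMB5, PSMC4, PSMD11, PSME3, PSMF1 and PSMG4. PSMB8 was at 85.5, 96.0, 23.1, 101 and 95.5 CPM with the combination in clones 1 to 5, with clone 3 far below. With all 5 clones its change was 0.16 (adjusted p = 0.37), and without that library 0.34 (adjusted p = 0.00038), all 4 values lying above those with venetoclax. PSMB9 changed by 0.20 with and 0.32 without that library (adjusted p = 0.32 and 0.056). PSMD11 was lower by -0.47 with and -0.43 without it. PSMB10 was called lower with it (-0.28, adjusted p = 0.037) and not without it (-0.17, adjusted p = 0.16). Read numbers differed between these groups, at 1.48 to 6.11 M with the combination and 6.49 to 7.39 M with venetoclax, and their part in the result was not tested.

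Pomalidomide plus venetoclax differed from venetoclax alone in 0 members in wild-type clones by edgeR (3 at an unadjusted p under 0.05, 1 by DESeq2; 8.41% of all genes were called). PSMB8, PSMB9 and PSMB10 changed by 0.15, 0.25 and -0.16. Without the shallowest library PSMD11 was called lower (-0.24, adjusted p = 0.033), against 10.1% of all genes, and with the clone as a block 2 members were called, against 17.2%. In A428D clones 2 members were higher, PSME2 and PSMA6, against 4.60% of all genes. PSME2 was at 99.1, 110 and 142 CPM (lowest, median, highest) with the combination and at 74.8, 84.9 and 101 CPM with venetoclax, higher in 6 of 6 clones with overlapping groups. Its change of 0.42 (SE 0.12, adjusted p = 0.0088) was called in all 16 alternatives. PSMA6 changed by 0.30 (adjusted p = 0.040), a call kept in 9 of 16. Leaving out one clone in turn left 1 (without A428D clone 2, 5 or 6 or wild-type clone 4 or 5) to 4 (without wild-type clone 3) members called. In A428D clones zelebrudomide plus venetoclax and bexobrutideg plus venetoclax changed 0 members by edgeR, with PSMB8 at -0.02 in both, against 1.07% and 0% of all genes. With the clone as a block PSMA6 was called higher with zelebrudomide plus venetoclax (5.11% of all genes called). Whether the combinations' changes differ between the genotypes was not tested.

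**Figure D3:**
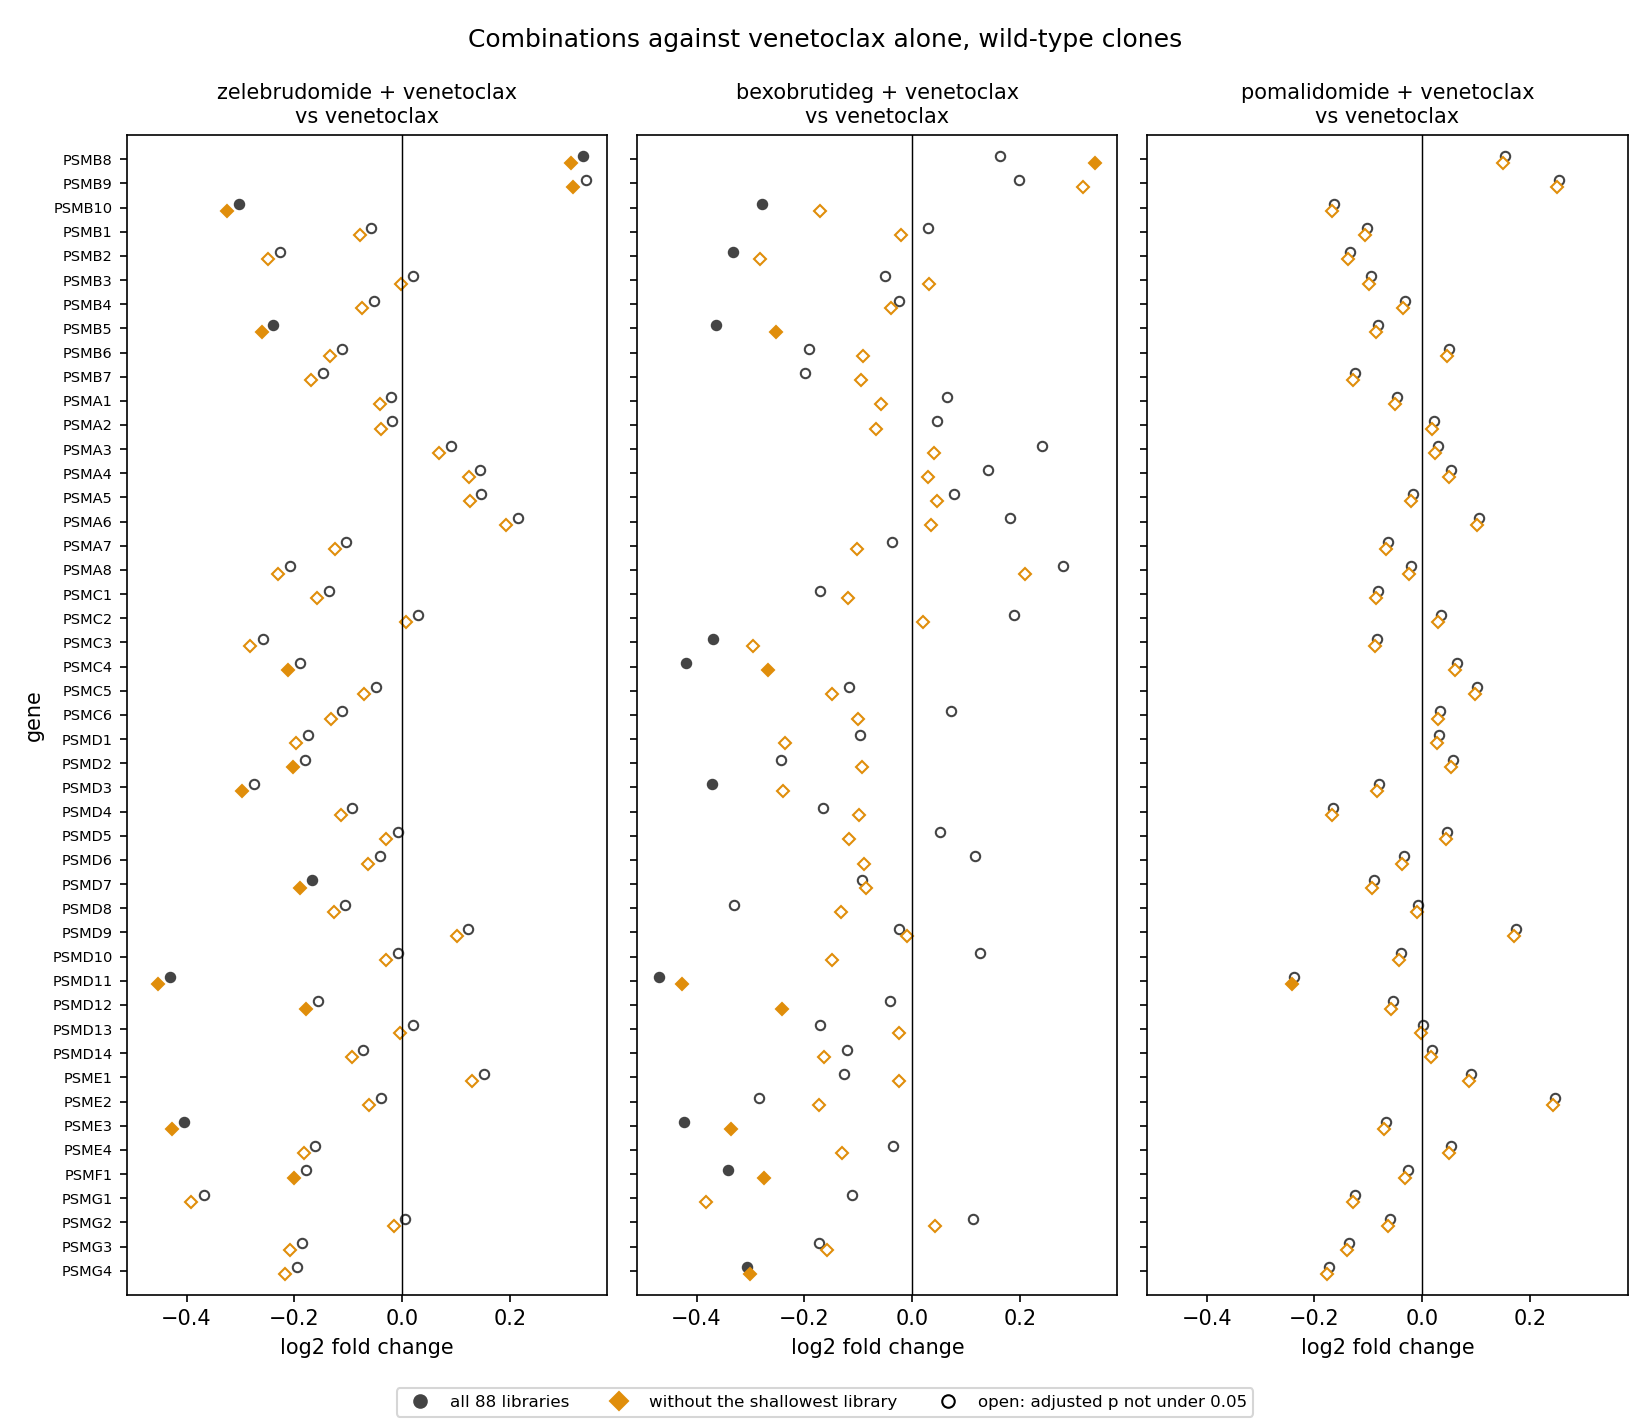
Log2 fold change of 47 members in wild-type clones for each combination against venetoclax alone. Dark circles use all 88 libraries of the 24 h set, orange diamonds leave out the shallowest one, and open symbols have an adjusted p not under 0.05. PSMB8 and PSMB9 lie right of 0 and PSMD11 lies furthest left in the 3 panels, and the shallow library moves points mainly in the bexobrutideg panel.

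Genes of the other lists were also called with these combinations in wild-type clones. Of 9 interferon and class I regulators, 4 were higher with zelebrudomide plus venetoclax than with venetoclax, led by NLRC5 (1.17), the transactivator of class I genes, and STAT2 (1.10). With bexobrutideg plus venetoclax NLRC5 and STAT2 were higher by 0.89 and 0.80 (0.99 and 0.79 without the shallowest library), and with pomalidomide plus venetoclax STAT2 was higher by 0.86. Without the shallowest library 4 regulators were higher and 1 lower with zelebrudomide plus venetoclax, and 3 higher and 1 lower with bexobrutideg plus venetoclax. The lower one was RFXAP in both (-0.40 and -0.65). With pomalidomide plus venetoclax 3 were then higher and 0 lower. B2M, the class I light chain, was higher by 0.39 with zelebrudomide plus venetoclax and 0.47 with bexobrutideg plus venetoclax (0.37 without the shallowest library). Of 15 class I presentation genes, 2 were higher and 0 lower with zelebrudomide plus venetoclax, and 1 was higher and 2 lower (TAPBP and CALR) with bexobrutideg plus venetoclax. Without the shallowest library 2 were higher and 4 lower (TAPBP, ERAP1, CALR and CANX) in the zelebrudomide combination, and 1 was higher and 2 lower (CALR by -0.42 and CANX by -0.31) in the bexobrutideg combination. Over all genes 11.6% were higher and 9.61% lower with zelebrudomide plus venetoclax, and 15.5% were called with bexobrutideg plus venetoclax. Without the shallowest library 12.6% were higher and 13.5% lower with zelebrudomide plus venetoclax. With bexobrutideg plus venetoclax these shares were 7.09% and 8.55%, and with pomalidomide plus venetoclax 6.02% and 4.12%. The class I presentation counts are small beside these shares and are not read as a change of that list. Of 7 proteasome gene regulators, 4 were lower with zelebrudomide plus venetoclax, MAFK by -1.12 and NFE2L1 by -0.51, and 2 with bexobrutideg plus venetoclax, NFE2L1 by -0.76 and MAFK by -0.73 (4 without the shallowest library, NFE2L1 by -0.71 and MAFK by -0.62). In A428D clones pomalidomide plus venetoclax raised STAT2 by 0.53 and the peptide transporter gene TAP1 by 0.29.

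The count ratio of each immunoproteasome gene to its constitutive counterpart compares their messenger RNA within one library and needs no scaling between libraries. It moves with a change in either gene and does not measure the exchange of subunits in proteasomes. Only its difference between groups is read here, since 3′ end counts do not give molar amounts. In wild-type clones the log2 ratio of PSMB8 to PSMB5 was higher with zelebrudomide than with DMSO by 0.38 (SD of clone differences 0.0983) and with bexobrutideg by 0.43 (SD 0.253), in 5 of 5 clones and without overlap of groups. With pomalidomide it was higher by 0.22 in 5 of 5 clones with overlap. Zelebrudomide plus venetoclax exceeded venetoclax by 0.57 (SD 0.188, 5 of 5, no overlap), and bexobrutideg plus venetoclax by 0.41 (4 of 5, overlap), or by 0.59 without clone 3 and then with no overlap. Pomalidomide plus venetoclax exceeded it by 0.24 (5 of 5, overlap). The ratio of PSMB9 to PSMB6 exceeded that with venetoclax by 0.47 with zelebrudomide plus venetoclax (5 of 5, no overlap). With bexobrutideg plus venetoclax the difference was 0.34 (4 of 5, overlap), or 0.42 without clone 3 and then with no overlap. With pomalidomide plus venetoclax it was 0.21 (5 of 5, overlap). Against DMSO the PSMB9 to PSMB6 ratio differed by 0.22 with zelebrudomide (4 of 5), 0.29 with bexobrutideg (4 of 5) and -0.01 with pomalidomide (2 of 5), all with overlap. That of PSMB10 to PSMB7 differed from venetoclax by -0.16 with zelebrudomide plus venetoclax (higher in 0 of 5 clones), -0.10 with bexobrutideg plus venetoclax (1 of 5) and -0.04 with pomalidomide plus venetoclax (2 of 5), with overlap. In A428D clones the PSMB8 to PSMB5 differences were 0.07 with zelebrudomide, 0.13 with bexobrutideg, 0.20 with pomalidomide, -0.08 with zelebrudomide plus venetoclax, -0.02 with bexobrutideg plus venetoclax and 0.14 with pomalidomide plus venetoclax, all with overlapping groups. These ratios carry no test.

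**Figure D4:**
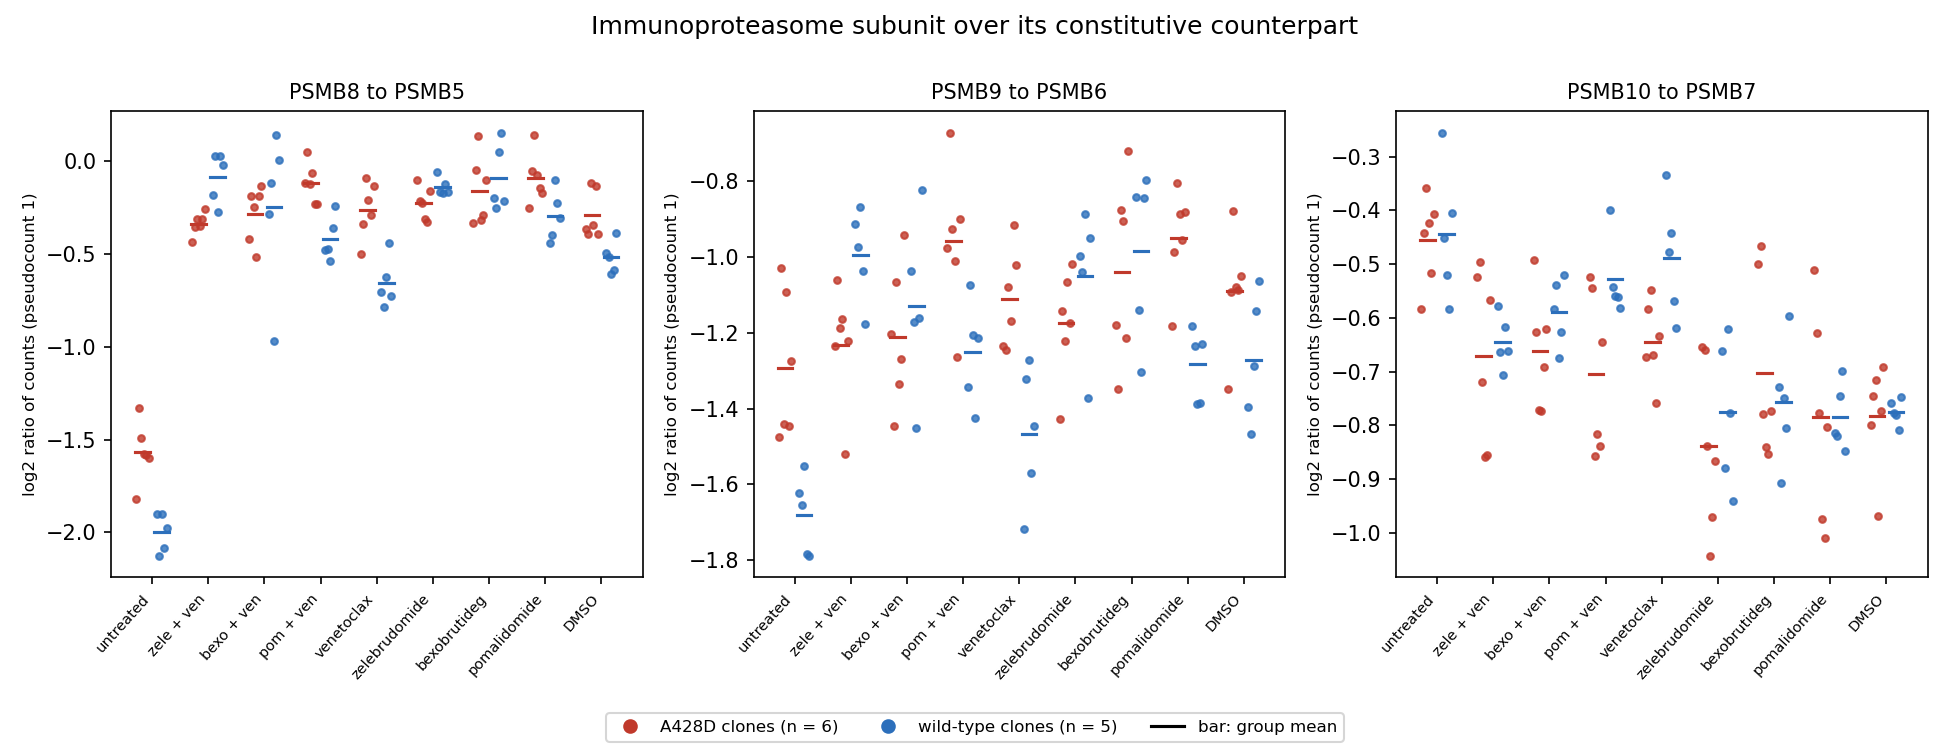
Log2 ratio of counts (pseudocount 1) of PSMB8 to PSMB5, PSMB9 to PSMB6 and PSMB10 to PSMB7 in each library, A428D clones left of wild-type clones. Points are libraries and bars group means. Wild-type PSMB8 to PSMB5 means with zelebrudomide, bexobrutideg and zelebrudomide plus venetoclax lie at -0.14, -0.09 and -0.09, above -0.52 with DMSO. Untreated means lie lowest for PSMB8 to PSMB5 in both genotypes. For PSMB10 to PSMB7 they lie highest, at -0.46 in A428D clones and -0.44 in wild-type clones.

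PSMB8 and PSMB9 were the 2 members higher in untreated A428D clones than in untreated wild-type clones. In untreated A428D clones PSMB8 was at 55.0, 58.3 and 64.2 CPM (lowest, median, highest), against 45.2, 43.9, 52.5, 45.2 and 48.1 CPM in wild-type clones 1 to 5. All 6 A428D values lay above all wild-type values, and the change was 0.33 (SE 0.05, adjusted p = 0.0019). Groups without overlap were found for 4.92% of all genes. PSMB9 was at 36.1, 40.0 and 47.2 CPM, against 33.2, 30.6, 36.8, 29.7 and 29.3 CPM, with a slight overlap and a change of 0.38 (SE 0.08, adjusted p = 0.0075). Both calls were kept in all 14 alternatives. PSMB10 changed by -0.01 (adjusted p = 0.93). Against 3.50% of all genes higher and 2.40% lower, 2 of 47 members were lower, PSMA2 (-0.17, adjusted p = 0.024) and PSMD12 (-0.16, adjusted p = 0.045). PSMA2 kept its call in 11 of 14 alternatives and PSMD12 in 5, both being lost without wild-type clone 3, 4 or 5. Leaving out one clone in turn gave 2 to 6 members called, with 2 without wild-type clone 3 or 4. Of 15 class I presentation genes 6 were higher, among them HLA-E (0.66), HLA-B (0.58) and HLA-C (0.34). The PSMB8 to PSMB5 and PSMB9 to PSMB6 ratios were higher in untreated A428D clones by 0.43 and 0.39 with no overlap.

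In DMSO libraries 4 members were higher in A428D clones and 0 lower, against 3.30% and 3.83% of all genes. PSMB9 was at 31.2, 40.3 and 43.6 CPM (lowest, median, highest) in A428D clones and at 24.8, 25.6, 28.9, 30.6 and 33.9 CPM in wild-type clones (0.43, adjusted p = 0.019), with overlap. PSMB6 (0.25, adjusted p = 0.031) and PSMD9 (0.28, adjusted p = 0.043) were higher without overlap, and PSMC3 by 0.35 (adjusted p = 0.045) with overlap. Of all genes 5.31% had groups without overlap. PSMB8 was at 82.5 ± 5.33 CPM in A428D clones (n = 6), against 69.1 ± 5.26 CPM in wild-type clones (n = 5), a change of 0.23 that was not called (adjusted p = 0.052). These calls rested on single libraries: without wild-type clone 1 or 2 none remained, without A428D clone 1 there were 11, without A428D clone 3 there were 9, and without A428D clone 4, 5 or 6 or wild-type clone 3 or 4 there were 1 or 2. DESeq2 called 7. Of 15 class I presentation genes 1 was higher in A428D clones with DMSO (TAP2, 0.46) and 3 were lower (CANX by -0.59, CALR by -0.48 and PDIA3 by -0.47).

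Most members were higher in untreated than in DMSO libraries. In A428D clones 39 of 47 members were higher and 2 lower untreated than with DMSO, and in wild-type clones 41 were higher and 1 lower. Over all 15354 genes tested 37.0% were higher and 33.9% lower in A428D clones, and 36.4% and 35.7% in wild-type clones. The members' median change was 0.46 in A428D clones, against 0.03 over all genes, and 0.70 in wild-type clones, against 0.00. The labels give a time of 24 h for the DMSO libraries and none for the untreated ones, so the vehicle cannot be told apart from any other difference between the sets.

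PSME2 had the largest change in both genotypes. It was at 159, 166 and 175 CPM (lowest, median, highest) in untreated A428D clones, against 44.2, 63.6 and 73.4 CPM with DMSO, and at 172, 168, 179, 172 and 182 CPM in untreated wild-type clones 1 to 5, against 50.5, 55.6, 57.7, 47.0 and 55.2 CPM. Its change of 1.45 in A428D clones had an adjusted p of 6.2e-15, and that of 1.73 in the wild type one of 1.3e-15. PSMA6, an alpha ring subunit, was higher by 1.33 and 1.60, PSMG1 by 1.27 and 1.62 and the beta subunit PSMB2 by 1.13 and 1.39. None of these groups overlapped, which held for 70.2% of members and 44.7% of all genes in A428D clones. In wild-type clones it held for 87.2% and 61.7%. All 6 ATPases, 4 activators and 4 PSMG chaperones were higher in both genotypes, with PSMB5 higher by 0.80 and 0.93.

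PSMB8 went the other way. It was at 55.0, 58.3 and 64.2 CPM in untreated A428D clones, against 76.2, 80.2 and 89.2 CPM with DMSO (-0.47, adjusted p = 6.3e-08). In untreated wild-type clones 1 to 5 it was at 45.2, 43.9, 52.5, 45.2 and 48.1 CPM, against 64.1, 67.2, 65.0, 72.8 and 76.3 CPM with DMSO (-0.54, adjusted p = 2.3e-08). It was lower in all 11 clones with no overlap of groups, and in wild-type clones it was the 1 member called lower. PSMB9 changed by 0.10 and 0.16 without a call, while PSMB10 was higher by 0.40 in A428D clones and 0.56 in wild-type clones. The PSMB8 to PSMB5 ratio was lower by a log2 difference of -1.27 and -1.48, while that of PSMB10 to PSMB7 was higher by 0.33 in both. The PSMB9 to PSMB6 ratio was also lower, by -0.20 in A428D clones (1 of 6 higher, groups overlapping). In wild-type clones it was lower by -0.41 (0 of 5 higher, no overlap). The untreated parental line, 1 library, had PSMB8 at 48.2, PSMB9 at 35.5, PSMB10 at 65.5 and PSMB5 at 180 CPM.

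**Figure D5:**
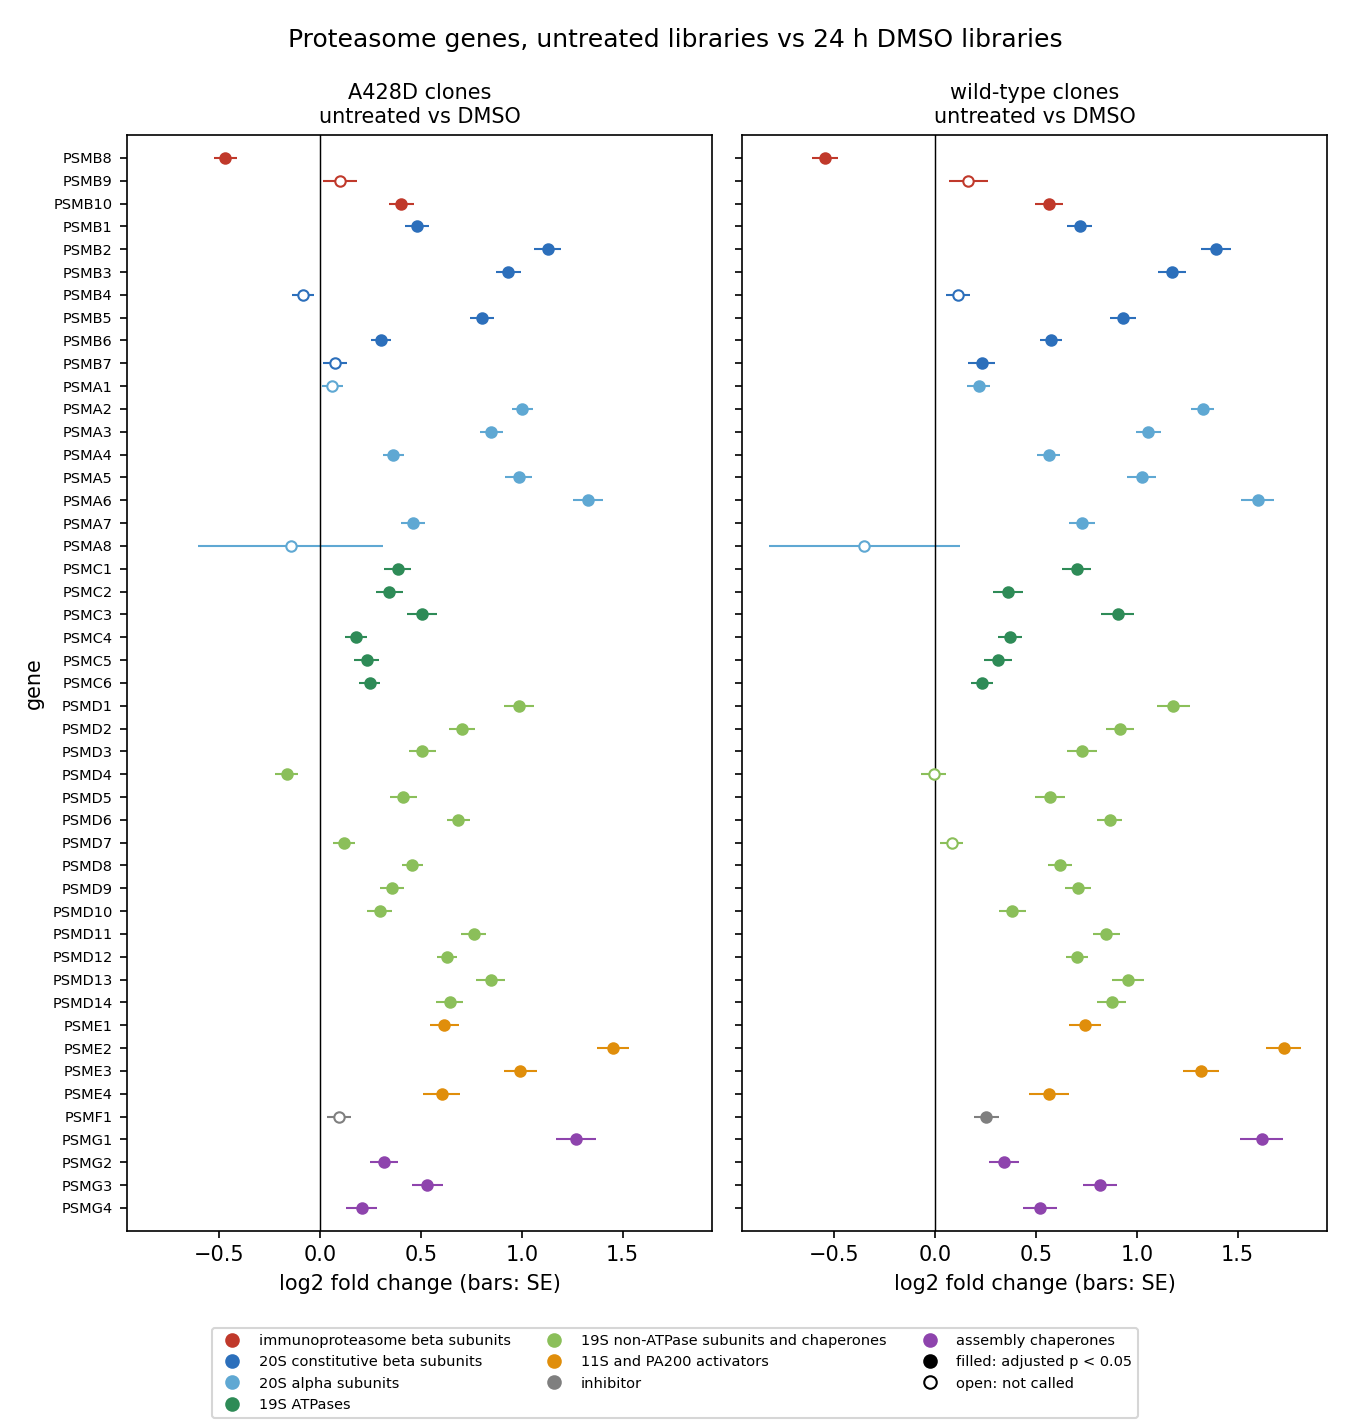
Log2 fold change of 47 members in untreated against DMSO libraries, in A428D clones (left, n = 6 each) and wild-type clones (right, n = 5 each). Points are edgeR estimates, bars are SE and filled points have an adjusted p under 0.05. PSMB8 lies left of 0 at -0.47 and -0.54, while PSME2 lies furthest right at 1.45 and 1.73.

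Most class I genes and regulators were lower in untreated libraries, against 33.9% of all genes in A428D clones and 35.7% in wild-type clones. Of 15 class I presentation genes 2 were higher and 8 lower in A428D clones, and 1 higher and 11 lower in wild-type clones, with HLA-E at -1.71 and -2.10. Of 9 interferon and class I regulators 2 were higher and 7 lower in A428D clones, and 1 higher and 6 lower in wild-type clones, with STAT2 at -1.24 and -1.48. Of 7 proteasome gene regulators 2 were higher and 4 lower in A428D clones, and 2 higher and 5 lower in wild-type clones, and NFE2L1 was at -0.46 and -1.05. Read numbers also differed, at 11.2 ± 0.468 M untreated against 7.49 ± 0.470 M with DMSO in A428D clones and 11.7 ± 0.683 against 7.90 ± 0.936 M in wild-type clones. The mitochondrial share was 6.92 ± 0.366% against 4.86 ± 0.587% in A428D clones and 7.05 ± 0.534% against 5.30 ± 0.306% in wild-type clones, and summed B cell markers were 1717 ± 172 CPM against 3097 ± 212 CPM and 1646 ± 47.1 CPM against 3069 ± 116 CPM. Summed T cell markers were 2.92 ± 0.397 CPM untreated against 0.476 ± 0.160 CPM with DMSO in A428D clones and 2.63 ± 0.484 CPM against 0.335 ± 0.131 CPM in wild-type clones. Of 5 such markers 2 passed the filter and both were higher, and one of them, CD2, was at 0 CPM in every DMSO library. Summed monocyte markers were 1.16 ± 0.152 CPM against 0.613 ± 0.292 CPM in A428D clones and 1.31 ± 0.134 CPM against 0.682 ± 0.366 CPM in wild-type clones, and the 1 of 4 that passed, FCGR3A, was higher. Summed fibroblast markers were 15.9 ± 2.95 CPM against 14.1 ± 4.52 CPM in A428D clones, with 2 of 4 higher and 1 lower, and 12.5 ± 0.730 CPM against 10.8 ± 1.59 CPM in wild-type clones, with 2 higher and 0 lower. The part of read numbers, mitochondrial share and these markers in the changes was not tested.

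In GENCODE 29 on GRCh38, 25 members overlap another gene on the opposite strand and 13 one on the same strand, and 12 have a pseudogene of their name. PSMB8 (chromosome 6, 32840717 to 32844703, minus strand) and PSMB9 (chromosome 6, 32844136 to 32859585, plus strand) overlap each other and the antisense gene PSMB8-AS1, beside TAP1. PSMB10 lies on chromosome 16 (67934502 to 67937087, minus strand), and PSME1 (24136158 to 24138967, plus strand) and PSME2 (24143362 to 24147570, minus strand) lie on chromosome 14. How reads of overlapping genes were assigned, and whether strand was used, is not given in the sources used here, so values of PSMB8 and PSMB9 carry that uncertainty.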

How the data were processed

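The members and gene lists were chosen with earlier results of these data known. The authors deposited 1 table of estimated counts per gene for 100 libraries, in which 8.75% of values were not whole (25.2% of member values). Per the submitters' processing notes, the tools named were STAR 2.7.11, featureCounts of Subread 2.1.1, fastp 0.24.0, edgeR, SAMtools 1.22.1, MultiQC 1.32 and FastQC 0.12.1, with the build GRCh38; how reads shared by genes or repeats were divided is not given in the sources used here. Counts were rounded to whole numbers here, which changed their sum by -0.00678%, and the 92 entries for spike-ins, which held at most 0.000976% of a library, entered neither totals nor tests.

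Tests used edgeR 4.0.16 in R 4.3.3 (robust quasi-likelihood, TMM scaling, filterByExpr at its default minima, 10 per library and 15 in total), with Benjamini-Hochberg adjustment over all genes tested and calls at 0.05. One fit held all 88 libraries treated for 24 h, with 14962 genes; untreated against DMSO was fitted on 22 libraries (15354 genes), and the genotypes on 11 libraries each in DMSO (13397 genes) and untreated (14564 genes). The scripts were tested on simulated data. CPM values use TMM factors over all 100 libraries, SE is the absolute log2 change over the root of the quasi-likelihood F, and 95% intervals are from the normal approximation to that SE. Ratios used raw counts with a pseudocount of 1 count. Depth was 1.48 to 12.5 M (mega) counted reads per library, and replicate pairs differed by more than sampling noise (lowest chi-square per degree of freedom 1.79).

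Groups came from the sample labels. A replicate number marks one clone in every group of its genotype, so numbers pair samples: over 500 genes, deviations from the group mean correlated with a median r of 0.72 within a clone (lowest -0.07) and of -0.18 between clones. Named genes were the catalytic beta subunits with PSME1 and PSME2, up to 10 called members per comparison with the largest change, members failing the filter, and up to 4 called genes per list, of which some are not reported here. Alternatives were the clone as a block, DESeq2 1.42.0, RLE size factors, no filter, leaving out each clone, leaving out the shallowest library and a pseudocount of 5. Figures used matplotlib 3.10.9 in Python 3.11.15.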

Additional observations from a re-analysis of the deposited data

Results flagged for a closer look

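In groups of 5 or 6 libraries, the lowest or highest level of PSMB8, PSMB9, PSMB10, PSMB5, PSMB6, PSMB7, PSME1 or PSME2 was set against the rest of its group, and 11 of 144 such checks singled out one library by Dixon's criterion, which chance does in about 1 in 20. The wild-type clone 3 library with bexobrutideg plus venetoclax accounted for 5 of them. Its PSMB8 level was 23.1 CPM, against 85.5 to 101 CPM in the other 4 clones, and its PSMB10 level was 27.0 CPM, against 56.5 to 66.7 CPM. Its PSMB5 level was 45.8 CPM (others 91.4 to 104 CPM), its PSMB6 level 39.0 CPM (73.4 to 85.9 CPM) and its PSMB7 level 43.3 CPM (84.8 to 97.0 CPM). This library also had the fewest reads, and the part of depth in these levels was not tested.

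The other 6 were spread over libraries. PSMB10 stood at 55.8 CPM in untreated A428D clone 5, below 62.5 to 65.3 CPM in the others. PSMB5 stood at 79.8 CPM in A428D clone 3 with pomalidomide (others 97.2 to 103 CPM), at 107 CPM in wild-type clone 5 with pomalidomide (92.4 to 95.7 CPM), at 91.2 CPM in wild-type clone 2 with zelebrudomide plus venetoclax (97.2 to 99.0 CPM) and at 169 CPM in untreated wild-type clone 1 (189 to 196 CPM). PSMB7 stood at 82.6 CPM in wild-type clone 1 with venetoclax, below 96.5 to 99.9 CPM in the others.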

How the results depend on the processing

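Of 161 calls of single members, 116 were kept in every alternative and 45 were lost in one or more, with 0 reversed in direction. Members that were not called are outside this tally. The members' median under zelebrudomide in wild-type clones, 0.01, was -0.01 with no filter and -0.02 without wild-type clone 3, and the median difference between genotypes, -0.04 under zelebrudomide and -0.02 under bexobrutideg, was 0.00 and 0.02 with no filter. With the clone as a replicate block, the members called numbered 3 (zelebrudomide), 2 (bexobrutideg), 8 (pomalidomide), 13 (zelebrudomide plus venetoclax), 2 (pomalidomide plus venetoclax) and 7 (zelebrudomide against pomalidomide) in wild-type clones, 1 (pomalidomide) and 1 (zelebrudomide plus venetoclax) in A428D clones, and 2 (zelebrudomide) and 1 (bexobrutideg) for the difference between genotypes; the block moved no other count by over 1.5 times. Without the shallowest library the counts were 2 (zelebrudomide), 1 (bexobrutideg), 8 (pomalidomide), 12 (zelebrudomide plus venetoclax), 1 (pomalidomide plus venetoclax) and 2 (zelebrudomide against pomalidomide) in wild-type clones and 4 (pomalidomide plus venetoclax) in A428D clones. For zelebrudomide against pomalidomide 3.77% of all genes were then higher and 5.91% lower. For pomalidomide plus venetoclax in A428D clones the shares were 5.69% and 3.95%. With no filter they were 0 (zelebrudomide), 0 (pomalidomide), 18 (venetoclax) and 0 (zelebrudomide against pomalidomide) in wild-type clones, 11 (venetoclax) and 1 (pomalidomide plus venetoclax) in A428D clones, and 2 for A428D against wild-type clones in DMSO, with 54783 or 38985 genes sharing the adjustment. DESeq2 gave 4 (pomalidomide), 1 (pomalidomide plus venetoclax) and 2 (zelebrudomide against pomalidomide) in wild-type clones and 7 for the genotypes in DMSO, and RLE size factors gave 1 for pomalidomide plus venetoclax in wild-type clones. For no filter, DESeq2, RLE size factors and each left-out clone, the share of all genes called is not reported here. Counts in those settings therefore cannot be set against all genes. The cause of these shifts was not tested.

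Leaving out each clone gave 0 to 2 (zelebrudomide), 0 to 3 (pomalidomide), 31 to 38 (venetoclax), 2 to 10 (zelebrudomide plus venetoclax), 6 to 12 (bexobrutideg plus venetoclax), 0 to 1 (pomalidomide plus venetoclax) and 0 to 2 (zelebrudomide against pomalidomide) in wild-type clones. In A428D clones it gave 15 to 23 (venetoclax) and 1 to 4 (pomalidomide plus venetoclax), between genotypes 0 to 11 (DMSO) and 2 to 6 (untreated), and for untreated against DMSO 39 to 41 in A428D clones and 42 to 43 in wild-type clones. No ratio difference moved by more than the spread between clones with a pseudocount of 5. The combinations in wild-type clones had the fewest reads, which limits small changes there.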
